A study of Mus musculus with 768 samples.

Results

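Oligodendrocytes that carried transcripts of immediate early genes were examined among single cells sorted from the dentate gyrus of the mouse. Of 768 wells in the count table, 658 passed limits on depth (50000 counts or more), on detected genes (1000 to 6000) and on the mitochondrial share of counts (15% or less). Of the kept wells, 301 were oligodendrocyte wells, chosen by at least 3 of the 5 markers Mag, Mog, Mobp, Cldn11 and Mal at 50 CPM or more, where CPM is a count scaled to a library of 1e6. Among these, 111 wells also had at least 2 of the 4 genes Fos, Egr1, Egr2 and Arc at 50 CPM or more, and are called IEG-high below. The remaining 190, with 0 or 1 of the 4 genes, are called IEG-low. The IEG-high wells were thus selected on measured values, so the levels of these 9 genes are given as a description and were not tested between IEG-high and IEG-low wells.

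The cells came from 8 male Nestin:GFP mice, in which green fluorescent protein is driven by regulatory sequence of Nes, an intermediate filament gene of neural stem cells. The mice were 2 months old, and 94 cells were sorted per mouse per the labels (96 wells per mouse in the table). Mice 2, 4, 6 and 8 received a miR-132 mimic and mice 1, 3, 5 and 7 (Control) a negative control oligonucleotide, 150 pmol in 3 µl with lipofectamine 2000, once weekly for 5 weeks. The first 4 mice (1 to 4) were sorted on 17 April 2018, the other 4 on 19 April. All 8 mice carried the reporter and all were injected, so no uninjected mouse is part of the comparison. An abbreviation, "AD", stands before the tissue in the design text, with no meaning given.

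Immediate early genes are switched on within minutes of a stimulus, before any new protein is made, mainly through serum response factor (SRF), which binds the CArG box, and through CREB, which binds the cAMP response element. Fos and its relatives pair with Jun proteins to form the transcription factor AP-1, and Egr1 and Egr2 are zinc finger transcription factors. Arc encodes a postsynaptic, capsid-forming protein that is best known from excitatory neurons. Oligodendrocytes wrap axons with myelin, and ERK signalling, a usual trigger of immediate early genes, takes part in their myelin production.

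The promoters below belong to genes that the results turn on, and were picked to show windows with and without the known elements of this response. They are the 250 bases before the annotated start from the RefSeq promoter table (build GRCm38.p6), 5′ to 3′ on the gene's own strand. Capitals mark a CArG box, the full cAMP response element TGACGTCA or the TATA motif TATAAA, each searched on both strands. Fos lies at chr12:85473640-85473889 (plus strand), Egr2 at chr10:67537619-67537868 (plus strand, 1 of 5 starts in the table), Zfp36 at chr7:28379229-28379478 (minus), Dusp1 at chr17:26508473-26508722 (minus), Btg2 at chr1:134079156-134079405 (minus) and Jun at chr4:95052223-95052472 (minus).
Fos: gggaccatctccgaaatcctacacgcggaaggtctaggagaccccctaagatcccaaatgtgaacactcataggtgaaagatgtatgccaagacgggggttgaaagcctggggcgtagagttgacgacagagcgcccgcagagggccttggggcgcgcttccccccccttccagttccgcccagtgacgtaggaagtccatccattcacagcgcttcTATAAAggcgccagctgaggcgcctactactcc
Egr2: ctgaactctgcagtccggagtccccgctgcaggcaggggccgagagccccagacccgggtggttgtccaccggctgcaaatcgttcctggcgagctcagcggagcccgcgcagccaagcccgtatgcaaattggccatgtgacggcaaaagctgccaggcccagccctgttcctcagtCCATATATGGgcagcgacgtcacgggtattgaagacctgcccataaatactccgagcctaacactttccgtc
Zfp36: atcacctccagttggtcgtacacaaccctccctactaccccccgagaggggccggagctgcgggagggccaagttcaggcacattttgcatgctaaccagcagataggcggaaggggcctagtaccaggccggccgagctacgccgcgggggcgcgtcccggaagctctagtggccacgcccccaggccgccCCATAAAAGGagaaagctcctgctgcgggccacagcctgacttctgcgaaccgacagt
Dusp1: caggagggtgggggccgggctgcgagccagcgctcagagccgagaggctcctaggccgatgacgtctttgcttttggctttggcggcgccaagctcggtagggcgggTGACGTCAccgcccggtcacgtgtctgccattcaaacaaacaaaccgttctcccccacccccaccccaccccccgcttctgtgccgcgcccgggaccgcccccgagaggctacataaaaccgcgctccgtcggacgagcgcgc
Btg2: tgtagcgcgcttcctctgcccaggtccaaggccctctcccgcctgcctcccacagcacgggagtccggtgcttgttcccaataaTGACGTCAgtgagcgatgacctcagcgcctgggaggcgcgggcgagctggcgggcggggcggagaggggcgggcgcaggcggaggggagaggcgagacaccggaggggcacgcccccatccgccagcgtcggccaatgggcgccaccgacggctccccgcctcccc
Jun: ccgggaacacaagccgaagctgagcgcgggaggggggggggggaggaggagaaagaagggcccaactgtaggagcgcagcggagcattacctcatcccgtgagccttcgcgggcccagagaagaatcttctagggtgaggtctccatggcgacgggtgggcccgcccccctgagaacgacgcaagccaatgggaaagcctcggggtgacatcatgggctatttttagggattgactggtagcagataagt
The CArG box began 58 bases before the start of Zfp36 and 72 bases before this start of Egr2. The full cAMP response element began 143 bases before the start of Dusp1 and 166 bases before that of Btg2. The Fos window held TATAAA 33 bases before the start, and the Jun window held none of the marked elements. Sequence farther upstream was not searched and partial elements are not marked, so a window without a mark does not mean that the gene lacks the element. Over the 300-base windows of all 27025 genes in the table (250 bases before to 50 after the start), 1.81% held a CArG box, 2.03% TGACGTCA, 15.7% TATAAA and 8.97% the AP-1 motif TGANTCA. Of the 5 oligodendrocyte markers used in the selection, 0 held any of these 4 motifs. Of 8 matched genes among 12 other oligodendrocyte markers (described below), 1 held a CArG box, 3 TATAAA, 0 TGACGTCA and 0 TGANTCA. Of the 18 genes of the AP-1 list (described below) that were matched, 0 held a CArG box and 1 held TGACGTCA, and the windows of Fosb, Junb and Nr4a1 held neither. Of 24 matched genes of the feedback list, 2 held a CArG box and 3 TGACGTCA. Of the 4 genes Fos, Egr1, Egr2 and Arc, 2 were matched in the table, and Egr1 and Arc were not. A match describes the sequence only.

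The IEG-high wells had a median of 696315 counts and 2954 genes, and the IEG-low wells 713796 counts and 2944 genes. Whole wells of 1 mouse were summed for the gene tests. Mouse 7 had only 1 IEG-high well and does not enter them, which leaves 3 Control and 4 miR-132 mice with 13 to 24 IEG-high and 16 to 32 IEG-low wells each. The labels hold 2 maps from wells to mice that agree on the mouse of only 96 of the 768 wells. Which map is right could not be told, and every share and test per mouse depends on it. The map in the sample descriptions was used. The IEG-high shares and the gene tests among oligodendrocyte wells were repeated with the other, by sample titles, and those that turned are named. Among the results not repeated with it were the quality measures, the treatment shares of single genes and the comparison with endothelial wells.

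Within the IEG-high wells Fos was at 50 CPM or more in 106 of 111, Egr1 in 98, Arc in 81 and Egr2 in 34. Fos had a median of 3440 CPM per well and a highest value of 17616 CPM, Egr1 a median of 870.3 and a highest of 4402 CPM, and Arc a median of 371 and a highest of 6072 CPM. The median of Egr2 was 0 CPM with a highest of 994 CPM, so it marked a minority of the selected wells. In IEG-low wells the median was 0 CPM for Fos, Egr1 and Egr2, and 47.0 CPM for Arc. Arc was at 50 CPM or more in 94 of the 190 IEG-low wells, against 12 for Fos, 1 for Egr1 and 0 for Egr2, as the plot of all wells by mouse shows.

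**Figure D1:**
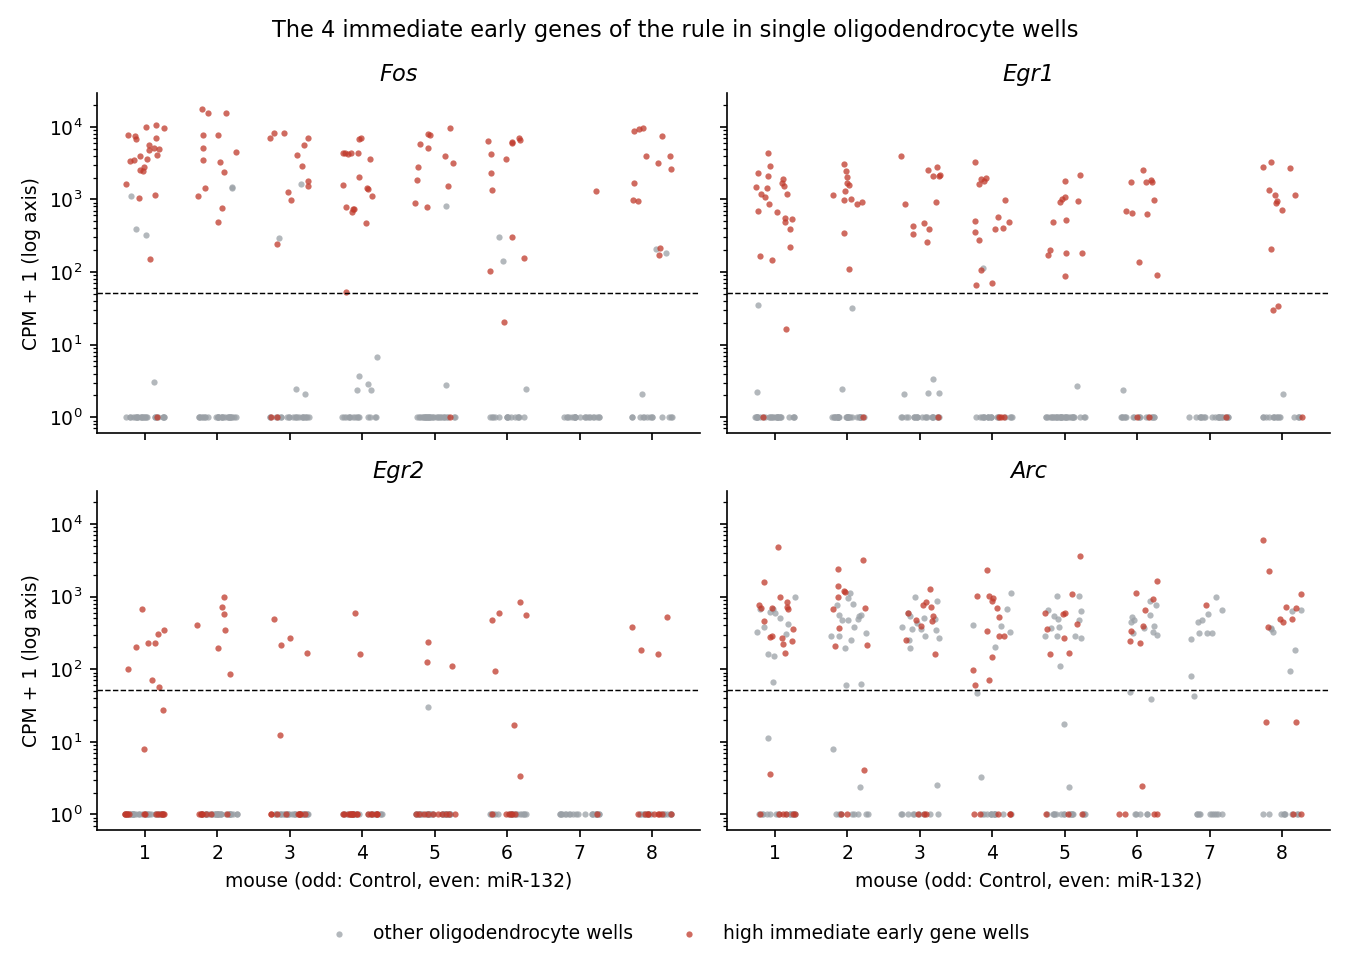
CPM + 1 (log axis) of Fos, Egr1, Egr2 and Arc in each of 301 oligodendrocyte wells, by mouse, with IEG-high wells in red, IEG-low wells in grey and a dashed line at the limit of 50 CPM. Fos and Egr1 are nearly all-or-none between the colours, while Arc is at 50 CPM or more in 94 grey wells, and mouse 7 has 1 red well.

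The commonest combination was Fos, Egr1 and Arc without Egr2, in 43 of the 111 wells (38.7%). All 4 genes passed in 21 wells, Fos and Egr1 alone in 18, Fos and Arc alone in 12, and Fos, Egr1 and Egr2 in 11. Egr1 with Arc (4 wells), Egr1 with Egr2 and Arc (1) and Fos with Egr2 (1) made up the rest. Among IEG-low wells, 94 had Arc only, 83 had none of the 4 genes, 12 had Fos only and 1 had Egr1 only. The selection was not sharply dependent on its limit: by the second-highest of the 4 genes, the lowest IEG-high wells stood at 51.9, 69.3 and 70.4 CPM and the highest IEG-low wells at 37.6, 33.7 and 30.5 CPM. Only 3 IEG-high and 3 IEG-low wells had that value between 20 and 100 CPM.

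Arc, the effector of neuronal synapses, was found in oligodendrocyte wells of every mouse and was absent at this limit from all others. It was at 50 CPM or more in 175 of 301 oligodendrocyte wells and in 0 of 357 other kept wells, a count of 0 that allows a share of up to 0.840% (3 counts, counting error only). Only 4 of the 357 had any Arc count, the highest at 27.2 CPM. Oligodendrocyte wells were chosen by 5 markers that do not include Arc, so this contrast was not set by the selection. Per mouse, Arc was present in 57.7% ± 6.71 (SD, n = 8) of oligodendrocyte wells, from 50% to 67.4%. The share was higher in oligodendrocyte wells in 8 of 8 mice (two-sided exact sign-flip permutation p = 0.00781, the smallest that 256 sign flips can give, adjusted over the 4 genes p = 0.0313). The pattern was seen before this test was chosen, so the p-value describes it and is no independent evidence.

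Egr2 was at 50 CPM or more in 34 of 301 oligodendrocyte wells and 12 of 357 others. Its share was 10.7% ± 6.23 (SD, n = 8 mice) against 3.85% ± 4.76, higher in 7 of 8 mice (exact sign-flip permutation p = 0.0234, adjusted p = 0.0469). Fos was at 37.7% ± 15.5 against 35.7% ± 10.6 of wells, higher in 4 of 8 mice (exact permutation p = 0.656), and Egr1 at 30.9% ± 13.5 against 29.3% ± 10.2, higher in 5 of 8 (exact permutation p = 0.625). No difference was detectable for Fos and Egr1. These tests too were chosen with earlier results of these data known, so the p-value of Egr2 is a description as well. Among the 33 kept wells with at least 2 of the young-neuron and neuron genes Dcx, Neurod1, Tubb3 and Stmn2 at 50 CPM, 16 had Fos and 0 had Arc, which allows a share of up to 9.09%. The median counts per well were 706891 in oligodendrocyte wells and 592286 in the others, so the others were less deep.

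**Figure D2:**
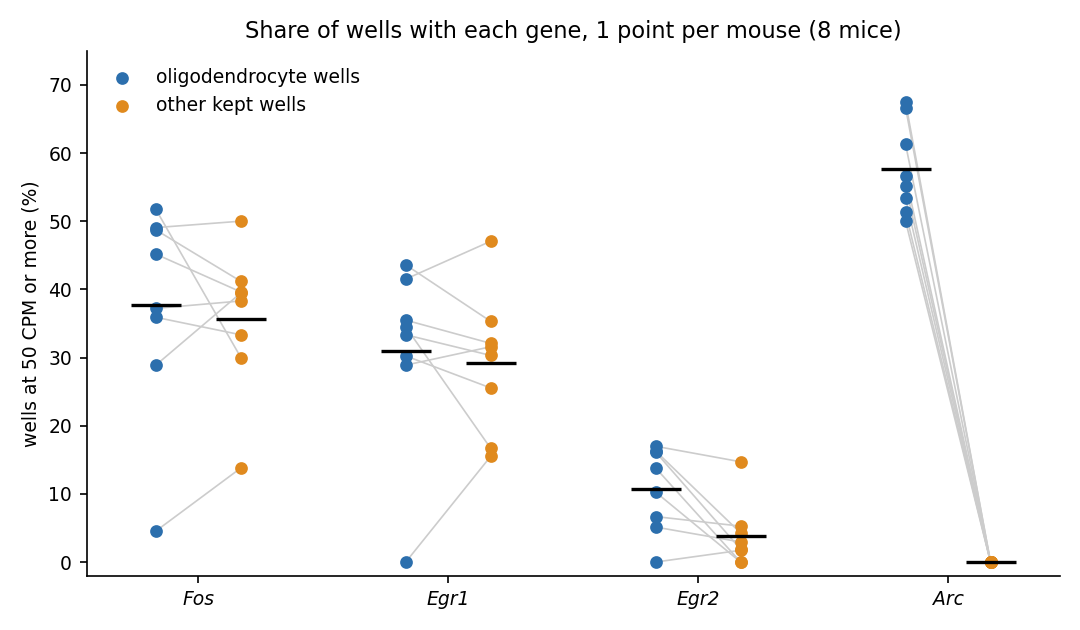
Share of wells at 50 CPM or more (%) for each of the 4 genes, in oligodendrocyte wells (blue) and other kept wells (orange), 1 point per mouse, lines joining the same mouse and black bars at the mean of 8 mice. Arc runs from 50% to 67.4% in oligodendrocyte wells and is at 0% in the others, while Fos and Egr1 overlap.

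Arc went with Fos only loosely. Of 118 oligodendrocyte wells with Fos, 64.4% had Arc, and of 183 without Fos, 54.1% had Arc. Arc wells with Fos had a median of 599.3 CPM of Arc and a middle range of 323 to 985 CPM, and Arc wells without Fos a median of 399 CPM and a middle range of 294 to 588 CPM. In mouse 7, Fos was in 4.55% and Arc in 50% of oligodendrocyte wells. The Arc gene (chr15:74669083-74672570, minus strand, mm10) overlaps no other annotated gene. Its nearest coding neighbours are Jrk at 29731 bases and Mroh4 at 32730 bases, and Jrk was at 50 CPM or more in 15 of 301 oligodendrocyte wells, of which 8 had Arc. The pattern of Arc was singled out after its values were seen.

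The selected wells carried the defining markers of mature oligodendrocytes. Of 12 oligodendrocyte markers outside the selection, the myelin basic protein gene Mbp had a median of 14570 CPM in IEG-high wells, against 14973 CPM in IEG-low wells. At least 3 of the 12 were at 50 CPM or more in all 111 IEG-high wells. The summed level of the 12 had a median of 76742 CPM in IEG-high and 78554 CPM in IEG-low wells. All 5 selection markers were present in 298 of the 301 wells, and 3 of 5 in the other 3.

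Most selected wells had low levels of the markers of other cell types, with single wells higher. Of 10 microglia and macrophage markers 8 were at 0 in all 111, Cx3cr1, P2ry12, Csf1r, C1qa and Tyrobp among them, and the summed level was at most 46.4 CPM in any IEG-high well. Of 10 endothelial markers Cdh5 and Tek were at 0, with a median sum of 0, a highest of 680 CPM and Kdr as the most abundant. Of 10 neuron markers Dcx, Gad2 and Stmn2 were at 0, the median sum was 0 and the highest 992 CPM, and 0 wells had 3 of them at 50 CPM. Of 10 astrocyte markers 0 were at 0 throughout. Their sum had a median of 17.1 CPM in IEG-high and 82.1 CPM in IEG-low wells, with 6 and 15 wells at 3 or more astrocyte markers, and the highest IEG-high well reached 2645 CPM. Of 10 oligodendrocyte precursor markers Bmp4, Neu4 and Vcan were at 0, the median sum was 0 and the highest 2128 CPM, with Enpp6 the most abundant. The part of astrocyte and precursor RNA in the results was not tested. Nes, whose regulatory sequence drives the sorted reporter, was at 50 CPM or more in 15 of 111 IEG-high wells (13.5%), 15 of 190 IEG-low wells (7.89%) and 160 of 357 other kept wells (44.8%).

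The share of oligodendrocytes that were IEG-high varied widely between mice of 1 treatment. In Control mice 1, 3, 5 and 7 it was 45.3%, 35.9%, 28.9% and 4.55% (24 of 53, 14 of 39, 13 of 45 and 1 of 22 wells). In miR-132 mice 2, 4, 6 and 8 it was 32.6%, 48.7%, 41.9% and 44.8% (14 of 43, 19 of 39, 13 of 31 and 13 of 29 wells). Mouse 7 stood far below the others, with an exact (Clopper-Pearson) 95% interval of 0.115% to 22.8% that covers counting error only. Its 1 IEG-high well had 1319 CPM of Fos and 756 CPM of Arc, with Egr1 and Egr2 at 0.

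The mean was 42.0% ± 6.89 (SD, n = 4) with the mimic and 28.7% ± 17.4 (n = 4) in Control, and the groups overlapped. The difference of 13.4 percentage points was not significant (two-sided exact permutation over mice, p = 0.2, adjusted over 7 comparisons p = 0.467; the smallest possible p is 0.0286). Within the first sort date the difference was 0.0478 and within the second, which holds mouse 7, 26.7 percentage points. It was 5.32 percentage points without mouse 7, and turned to -0.665 with wells assigned by sample titles. As a share of all kept wells, IEG-high oligodendrocytes made up 17.9% ± 5.42 with the mimic and 16.0% ± 11.0 in Control (exact permutation p = 0.886). Within the 2 dates this difference was -2.72 and 6.59 percentage points. Leaving out mouse 7 turned it to -2.98 percentage points, and leaving out mouse 4 to -0.773. The second date minus the first gave -10.6 percentage points of oligodendrocyte wells (30.05% ± 18.4 against 40.6% ± 7.63, exact permutation p = 0.371), and 3.33 with the title map.

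Taken gene by gene, Fos was in 45.7% ± 6.27 (SD, n = 4) of oligodendrocyte wells with the mimic and 29.6% ± 18.7 in Control (exact permutation p = 0.143), Egr1 in 35.9% ± 5.58 and 25.9% ± 18.1 (p = 0.371, exact), and Egr2 in 12.8% ± 5.26 and 8.48% ± 7.09 (p = 0.371, exact). Arc was in 58.8% ± 7.08 and 56.7% ± 7.201 (exact permutation p = 0.714). Adjusted over the 4 genes the lowest p was 0.495.

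**Figure D3:**
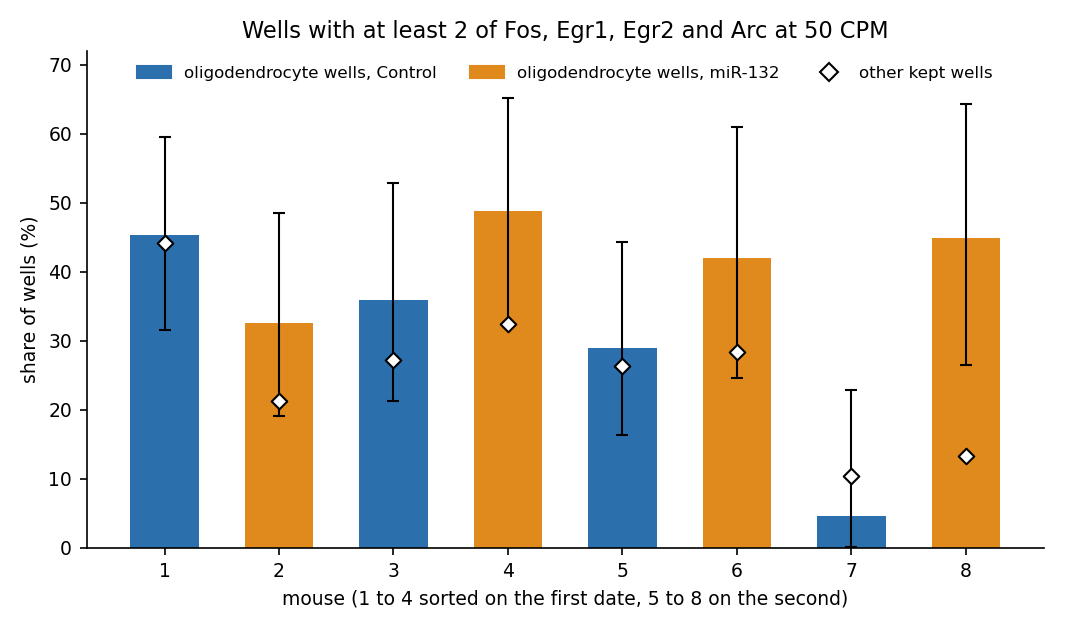
Share of oligodendrocyte wells that are IEG-high (%), by mouse, in blue for Control and orange for miR-132, with exact 95% binomial intervals, and the same share among other kept wells (white diamonds). Bars run from 4.55% (mouse 7) to 48.7% (mouse 4), and mouse 7 has the lowest diamond as well.

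Other kept wells with at least 2 of the 4 genes numbered 84 of 357. Their share was 44.1%, 21.3%, 27.3%, 32.4%, 26.3%, 28.3%, 10.3% and 13.3% in mice 1 to 8. Across the 8 mice it went with the share in oligodendrocyte wells at Pearson's r = 0.616 (permutation p = 0.114) and Spearman's rho = 0.714 (permutation p = 0.0576). Without mice 1 and 7, the farthest from the median, r was 0.0653 and rho 0.371. Without mouse 7 alone, r was 0.295 and rho 0.571. Leaving out the most extreme mice narrows the range, so these values cannot say what the relation rests on. The IEG-high wells were found in 29 of 32 plate rows.

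No difference in depth was detected between IEG-high and IEG-low wells of the same mouse. The median counts per well differed by 1957 over 7 mice (716904 ± 85041 against 714947 ± 87089, SD; exact sign-flip permutation p = 0.891). The median number of genes differed by 17.3 (exact p = 0.813) and the mitochondrial share by -0.0926 percentage points (2.06% ± 0.185 against 2.15% ± 0.212, exact p = 0.172). The share of counts on the 18S ribosomal RNA gene was 9.88% ± 1.66 in IEG-high and 10.8% ± 1.22 in IEG-low wells. It was higher in 1 of 7 mice (exact sign-flip permutation p = 0.0313, adjusted over 7 comparisons p = 0.219).

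Genes outside the selection were then compared between IEG-high and IEG-low wells of the same mouse. The wells are the same in which Fos, Egr1, Egr2 and Arc were measured, so these genes describe what accompanies the selected genes within cells. Of 7325 genes tested with edgeR's quasi-likelihood test with the mouse as block, 2 passed an adjusted p of 0.05, both higher in IEG-high wells (0.0273%), and 0 were lower. Of the 7325, 238 had an unadjusted p under 0.05. The 2 were Jun and Zfp36. DESeq2 called 109 (52 higher and 57 lower, 1.49%), and limma on mean log2(CPM + 1) per mouse, chosen after seeing the data, called 9, all higher (0.123%).

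Jun, which encodes the usual partner of Fos in AP-1, was at 441 to 1604 CPM in the summed IEG-high wells of 7 mice (median 759) and at 49.4 to 224 CPM in the IEG-low wells (median 125). The ranges did not overlap. The log2 difference was 2.58 ± 0.25 (SE; edgeR adjusted p = 0.0114), and it was positive under all 19 alternatives tried (2.43 to 4.11). Zfp36, whose protein (tristetraprolin) binds AU-rich elements and hastens the decay of unstable messenger RNAs, was at 12.6 to 133 CPM (median 80.6) against 0.913 to 11.8 CPM (median 5.67). Its ranges did not overlap either, with mouse 3 the lowest in both kinds of well. The log2 difference was 3.82 ± 0.43 (edgeR adjusted p = 0.0206). Both calls were lost without mouse 1, 2, 6 or 8 and against the 83 wells with 0 of 4 genes, and the Zfp36 call also without mouse 3 or 5, while the differences stayed at 2.46 or more for Jun and 3.51 or more for Zfp36 in those fits.

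The AP-1 and activity-regulated transcription factors formed the list with the largest median difference among those described. Of its 23 genes, 6 were detected well enough to be tested, 6 of 6 had a positive difference and 1 (Jun) was called, with a median log2 difference of 4.36 against -0.09 over all genes tested. Since low genes could pass the filter through the IEG-high wells alone, these counts describe the list and are no test of it. Fosb, a Fos relative, was at 163 to 439 CPM (median 268) against 0 to 15.8 CPM (median 6.79), and Junb, a Jun relative, at 209 to 660 CPM (median 342) against 0 to 34.9 CPM (median 10.4). Ier2, an immediate early nuclear protein, was at 119 to 330 CPM (median 162) against 0 to 12.1 CPM (median 0.327). For each of Fosb, Junb and Ier2 the lowest IEG-high mouse lay above the highest IEG-low mouse. None passed edgeR (adjusted p = 0.231, 0.802 and 0.524), and each passed DESeq2 (adjusted p = 2.64e-06, 1.93e-05 and 2.12e-08) and limma.

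Nr4a1, an orphan nuclear receptor gene, was already present in IEG-low wells, at 85.0 to 190 CPM (median 158) against 185 to 354 CPM (median 219) in IEG-high wells. It was higher in 7 of 7 mice with a log2 difference of 0.84 ± 0.20 (edgeR adjusted p = 0.919, DESeq2 adjusted p = 0.00202). Klf6, a Krüppel-like factor gene, had medians of 69.5 and 66.5 CPM and was higher in 4 of 7 mice. The other 17 genes of the list were not tested for low counts. Among them, Jund, Npas4 and Egr4 had 0 counts in all 111 wells, which allows up to 2.70% of wells with a count, and Egr3, Klf2 and Atf3 had a count in 2, 2 and 6 of the 111 wells. Jund and Npas4 were also at 0 in the summed IEG-low wells of 7 mice and in the summed endothelial wells of 5 mice described below. Whether the count table captures Jund and Npas4 was not tested, so their 0 is not read as absence. Npas4 is the activity factor of neurons, and Egr3 and Egr4 are relatives of Egr1.

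Genes that dampen signalling or shorten transcripts formed a second list of 30, of which 13 were tested. Of these, 12 had a positive difference and 1 (Zfp36) was called, with a median log2 difference of 1.99. Dusp1, a phosphatase that switches off MAP kinases, was at 314 to 1335 CPM (median 581) against 3.52 to 93.7 CPM (median 51.6), a log2 difference of 3.96 ± 0.58 (edgeR adjusted p = 0.131; DESeq2 adjusted p = 2.58e-09). Btg2, an antiproliferative gene that promotes messenger RNA deadenylation, was at 62.0 to 257 CPM (median 100.0) against 0 to 25.9 CPM (median 3.28), with an edgeR adjusted p near 1.00 and a DESeq2 adjusted p of 0.00202. Neither gene overlapped between the 2 kinds of well. The clock gene Per1 was at 66.4 to 245 CPM (median 133) against 13.9 to 232 CPM (median 77.7) and was higher in 6 of 7 mice. Its log2 difference was 1.04 ± 0.31 (edgeR adjusted p near 1.00, DESeq2 adjusted p = 0.0221).

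Being higher in 7 of 7 mice was true of 73 of the 7325 genes (0.997%). It was true of 5 of 6 tested genes of the AP-1 list and 5 of 13 of the feedback list. These counts have the same limit as above, since the filter could admit a gene through the IEG-high wells alone. A gene that is higher without overlap is also higher in 7 of 7 mice. The share of all genes that are higher without overlap was not counted, and can be at most 0.997%.

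**Figure D4:**
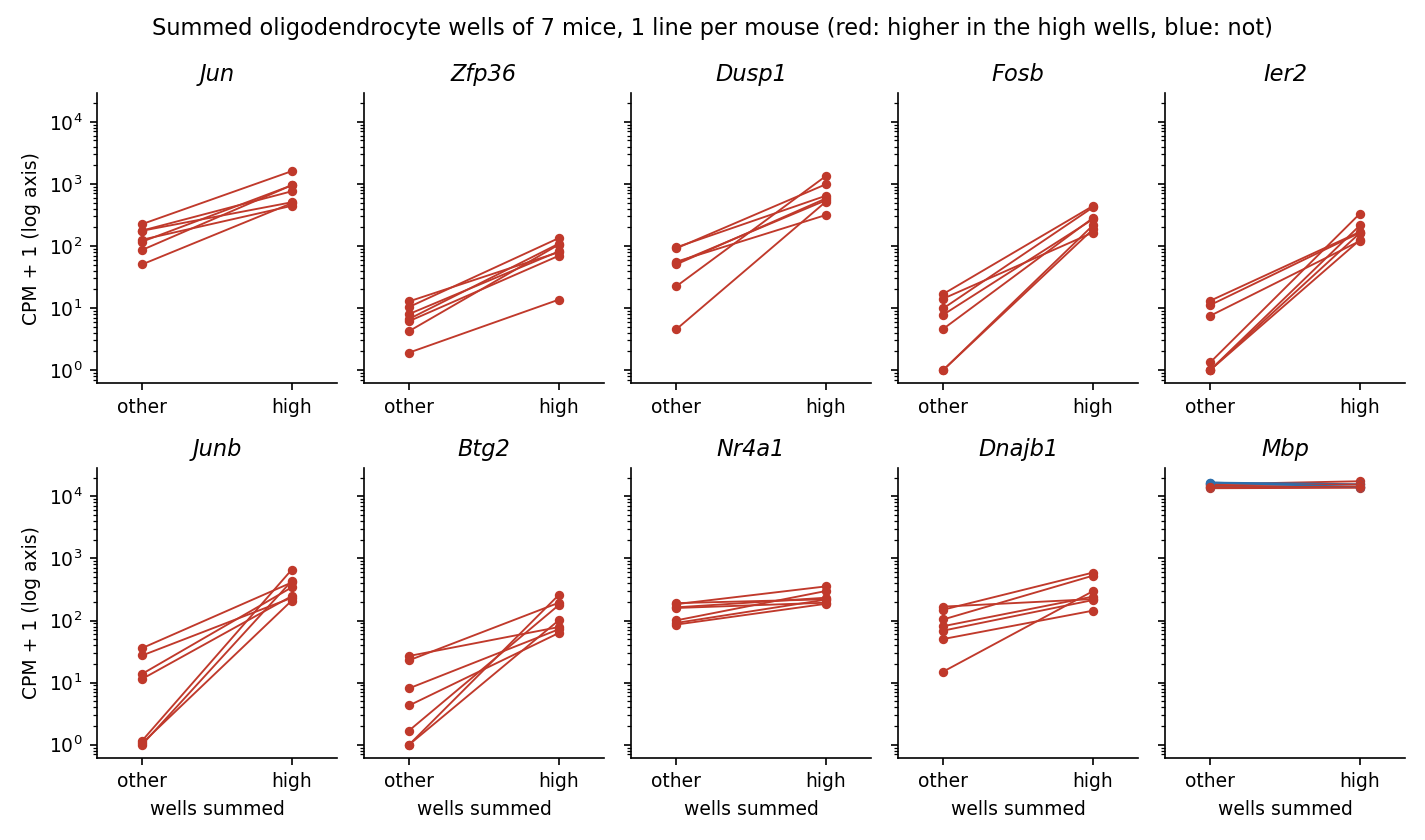
CPM + 1 (log axis) of 10 genes in the summed IEG-low wells ("other") and IEG-high wells ("high") of 7 mice, 1 line per mouse, red where the IEG-high wells are higher and blue where they are not. Jun, Zfp36, Dusp1, Fosb, Ier2, Junb and Btg2 lie higher in the IEG-high wells of every mouse without overlap, while the Mbp lines are flat and of both colours.

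Outside these 2 lists, 0 of the tested genes in any other list described passed edgeR. DESeq2 called Apod of the mature oligodendrocyte state list, with medians of 5434 against 4387 CPM (DESeq2 adjusted p = 0.000371). It also called Insig1 of the cholesterol list, with medians of 179 against 114 CPM (DESeq2 adjusted p = 0.00761). Both were higher in the IEG-high wells of 7 of 7 mice, each with an edgeR adjusted p of 0.969. Of 30 myelin and oligodendrocyte maintenance genes, 30 were tested, 12 had a positive and 18 a negative difference, and the median log2 difference was -0.02. Hapln2, a hyaluronan-binding link protein of the nodes of Ranvier, was among the smallest p-values of that list, at 409 to 986 CPM (median 654) against 420 to 756 CPM (median 535; edgeR adjusted p near 1.00). Car2, the carbonic anhydrase gene of oligodendrocytes, was at 4036 to 6079 CPM (median 5346) against 4882 to 6219 CPM (median 5768), lower in 6 of 7 mice (log2 difference -0.16 ± 0.07, edgeR adjusted p near 1.00), and its difference turned to 0.10 with limma. The median log2 difference was 0.06 over 24 tested cholesterol and fatty acid synthesis genes, -0.05 over 16 glycolysis and lactate genes, -0.04 over 16 mature oligodendrocyte state genes, and -0.08 over 16 receptors that signal through ERK. For the 14 mitochondrially encoded genes it was -0.08 and for 80 cytosolic ribosomal protein genes -0.07, with 0 called in either.

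No gene of the stress and hormone lists passed edgeR. Of 15 tested heat shock and chaperone genes, 8 had a positive difference and the median was 0.00 on the log2 scale. Dnajb1, a co-chaperone of Hsp70, was the one with the smallest p, at 143 to 591 CPM (median 242) against 14.0 to 166 CPM (median 80.0), higher in 7 of 7 mice (log2 difference 1.94 ± 0.39, edgeR adjusted p = 0.520; DESeq2 adjusted p = 7.41e-07). Of 10 glucocorticoid-induced genes, 9 had a positive difference with a median of 0.52, and the metallothionein gene Mt1 had a median of 267 against 218 CPM. Of 8 integrated stress response genes, 5 were positive with a median of 0.19, led by Atf4, the transcription factor of that response. Atf4 had a median of 206 against 104 CPM (log2 difference 0.96 ± 0.25, edgeR adjusted p = 0.969, DESeq2 adjusted p = 0.00761). Of 6 tested astrocyte markers, 6 had a negative difference with a median of -1.25 and 0 called: the glutamate transporter gene Slc1a2 had a median of 12.8 against 34.3 CPM and Aldoc one of 14.4 against 95.2 CPM.

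Genes whose levels followed the mean of the 4 selection genes across oligodendrocyte wells were ranked by Spearman correlation within each mouse, averaged over mice, among 7566 genes. Among the 10 highest were Fosb (0.70, 0.55 to 0.82 in single mice), Ier2 (0.62), Junb (0.57), Dusp1 (0.53), Btg2 (0.47), Jun (0.44), Zfp36 (0.43) and, lower, the predicted genes Gm10382 (0.33) and Gm26917 (0.29). Wells of 1 mouse share plate, library preparation and sort, and the values are descriptions. Arc followed no gene as closely. Its highest average was 0.22 with Ier2, and it stood at 0.20 with Fos, 0.22 with Egr1 and 0.14 with Egr2, while Fos stood at 0.85 with Egr1 and 0.55 with Egr2. The library method does not mark strand, so predicted and antisense genes that overlap others cannot be told apart from them. Jun overlaps the antisense gene Junos, which had a count in 1 of 111 wells, and Junb overlaps Prdx2, which had a count in 45. Dusp1 overlaps, among others, Ergic1, which had a count in 23, and Zfp36 overlaps Gm44710, which had a count in 0.

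The same 4-gene limit applied to endothelial wells found 28 of 106, and 5 mice had at least 3 of them beside IEG-high oligodendrocyte wells. These were the 4 miR-132 mice and 1 Control mouse (mouse 5), with 3 to 8 endothelial and 13 to 19 oligodendrocyte wells each. This comparison was added after seeing the data. Both sets were selected on the same genes, so levels of Fos, Egr1, Egr2 and Arc are a description. The limit did not act alike on the 2 cell types. All 28 endothelial wells had both Fos and Egr1 at 50 CPM or more, and 0 had Arc. Of all 111 IEG-high oligodendrocyte wells, 12 passed by Fos and Arc alone and 4 by Egr1 and Arc alone. The part of this in the differences below was not tested. Fos was at 2656 to 6016 CPM (median 3845) in the oligodendrocyte wells of 5 mice and 3886 to 13345 CPM (median 6385) in the endothelial wells, and Arc at 426 to 982 CPM (median 673) against 0 in all 5. Egr2 had medians of 103 and 2.05 CPM. The median counts per well were 696315 in all 111 IEG-high oligodendrocyte wells and 508464 in the 28 endothelial wells.

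Junb, Ier2, Dusp1, Btg2 and Zfp36, which accompanied the selection genes in oligodendrocytes, were lower there than in the endothelial wells. Of the AP-1 list 13 genes were tested, 13 of 13 were lower and 5 were called by edgeR (Junb, Atf3, Klf2, Klf4 and Ier2). Of 17 tested feedback genes 11 were lower and 6 higher, with 7 called lower and 0 called higher, and 3 of the 6 had an unadjusted p under 0.05. Genes near 0 in oligodendrocyte wells, such as Klf2, Atf3 and Klf4, could pass the filter through the endothelial wells alone, so these counts describe the lists and support nothing further. Among all 7115 genes tested, 1528 had a negative and 5587 a positive difference, with a median log2 difference of 2.33. Of these, 299 were called lower (4.2%) and 552 higher. Junb was at 247 to 660 CPM (median 410) against 2554 to 3647 CPM (median 2965), a log2 difference of -2.39 ± 0.46 (edgeR adjusted p = 0.0101). Ier2 was at 119 to 330 CPM (median 160) against 1052 to 2126 CPM (median 1719; edgeR adjusted p = 0.0135). The ranges overlapped for neither gene. The shares of all genes without overlap, or lower in every mouse, were not counted for this comparison.

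Atf3, a stress-induced transcription factor gene, was at 0 to 31.3 CPM (median 0.0888) against 33.1 to 1608 CPM (median 210). Klf2, the flow-responsive Krüppel-like factor of endothelium, was at 0 in the oligodendrocyte wells of all 5 mice and 309 to 581 CPM in the endothelial wells. Zfp36 had medians of 80.6 and 602 CPM (edgeR adjusted p = 0.0437), Dusp1 of 542 and 3502 CPM (edgeR adjusted p = 0.0152) and Btg2 of 100.0 and 961 CPM (edgeR adjusted p = 0.0262), each lower in the oligodendrocyte wells of 5 of 5 mice. Jun (medians 947 and 2995 CPM, edgeR adjusted p = 0.0566), Fosb (213 and 486 CPM, edgeR adjusted p = 0.352) and Nr4a1 (219 and 1771 CPM, edgeR adjusted p = 0.143) were lower in 5 of 5 mice without passing. Leaving out 1 mouse gave 451 to 533 calls over all genes in place of 851.

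**Figure D5:**
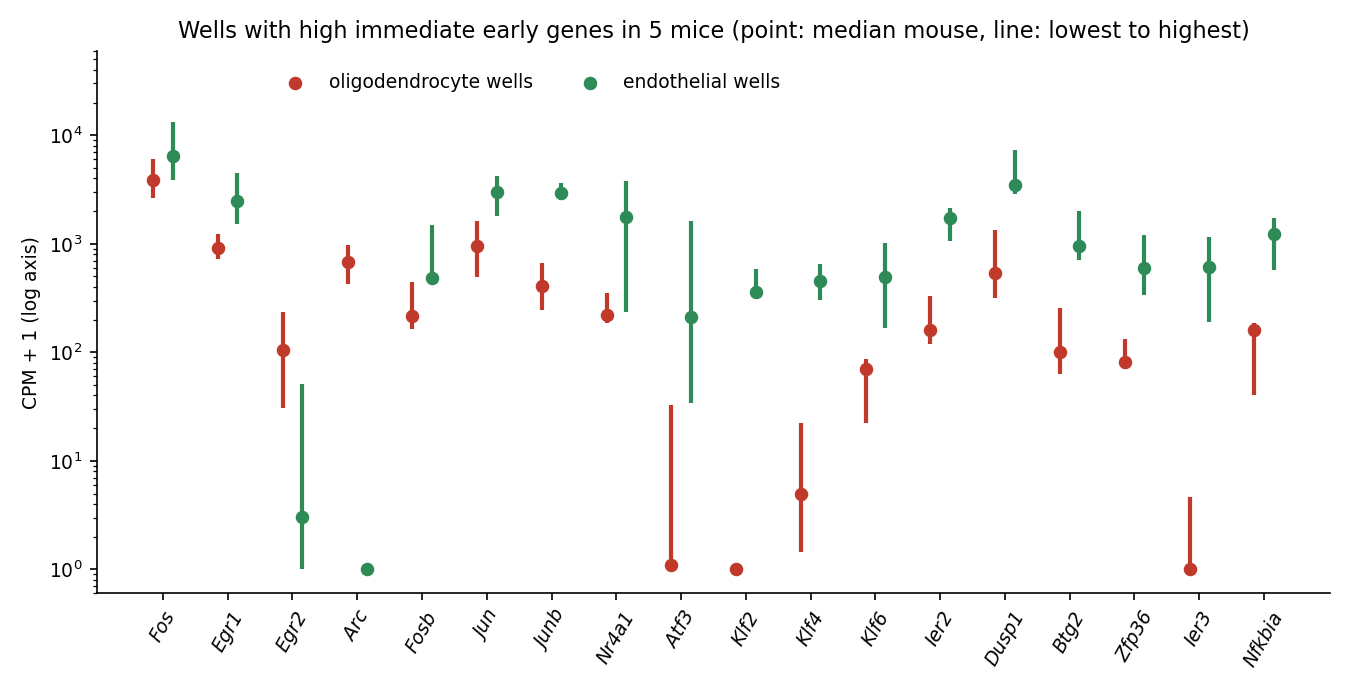
CPM + 1 (log axis) of 18 genes in summed IEG-high oligodendrocyte wells (red) and endothelial wells chosen by the same 4-gene limit (green) of 5 mice, with points at the median mouse and lines from the lowest to the highest mouse. Arc is at 0 in the endothelial wells, and Junb, Ier2, Dusp1, Btg2 and Zfp36 lie in separate ranges with the oligodendrocyte wells lower.

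Within the IEG-high wells, no gene passed between miR-132 and Control mice. Of 7434 genes tested with edgeR with the sort date as covariate in 3 Control and 4 miR-132 mice, 0 passed (0.0%), 137 had an unadjusted p under 0.05 and the lowest adjusted p was 0.999. DESeq2 called 8, the fit without a filter 10 and limma on mean log2 values 1 (Htra1). On simulated counts (7324 genes) this test found 0% of 2-fold and 6.25% of 4-fold differences, against 6% and 27% in the IEG-high against IEG-low comparison (7294 genes). In the latter simulation 3 unchanged genes were called as well, beside the changed genes that were found. Its mix of changed genes was set by hand, so these 3 do not measure the error among the 2 calls in the real data. The difference between IEG-high and IEG-low wells in their response to the mimic gave 0 of 7410 genes with edgeR, 175 at an unadjusted p under 0.05, and 58 with DESeq2.

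The selection genes themselves did not differ detectably in level between treatments. Fos in the summed IEG-high wells was at 4575, 3752 and 3845 CPM in Control mice 1, 3 and 5 and at 6016, 2656, 3602 and 4131 CPM in miR-132 mice 2, 4, 6 and 8. Arc was at 606, 521 and 673 CPM and at 894, 440, 426 and 982 CPM. The Control mice lay inside the range of the miR-132 mice for both genes.

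Junb was the gene of the immediate early lists with the smallest p, at 231, 209 and 247 CPM in Control mice and 342, 410, 660 and 434 CPM in miR-132 mice. The groups did not overlap, but this was true of 382 of the 7434 genes tested and is not particular to Junb. Its log2 difference was 0.88 ± 0.24 (edgeR unadjusted p = 0.00663, adjusted p = 0.999). Htra1, a secreted serine protease gene, was at 421, 284 and 287 CPM against 785, 649, 499 and 484 CPM (log2 difference 0.88 ± 0.21, edgeR adjusted p = 0.999; limma adjusted p = 0.0355). Among the lowest, Kif3a, a kinesin motor gene, was at 163, 170 and 198 CPM against 124, 61.4, 49.6 and 75.6 CPM (log2 difference -1.22 ± 0.37, edgeR adjusted p = 0.999), and its difference turned to 0.35 with wells assigned by sample titles. Of 16 genes listed as miR-132 targets in published work, 10 were tested, 4 had a negative and 6 a positive difference, and the median log2 difference was 0.07 against 0.01 over all genes tested.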

How the data were processed

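The deposited table gives whole-number read counts for 32679 genes in each of 768 wells that received 1 sorted cell, from Smart-seq2, a full-length method without molecular identifiers or strand, per the labels' protocols. The submitters' processing notes name featureCounts 1.5.1 (Subread), STAR, Seurat 2.3.1, FastQC and the mouse build mm10. Their settings are not given in the sources used here. PCR copies are counted, so binomial intervals cover counting error only.

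Wells failing a limit numbered 35 (counts), 58 (genes, too few), 16 (too many) and 1 (mitochondrial share). CPM per well used all genes. The mouse was the replicate: counts were summed per mouse over wells (at least 5 wells per mouse and kind, 3 for endothelial wells), genes that were detected in 10% or more of the wells and passed filterByExpr were tested with edgeR 4.0.16 (TMM, quasi-likelihood, two-sided, Benjamini-Hochberg), with DESeq2 1.42.0 and limma 3.58.1 as alternatives (R 4.3.3). Shares and quality measures had exact permutation tests over mice (Python 3.11.15, scipy 1.17.1, numpy 2.4.6, pandas 2.3.3, matplotlib 3.10.9). Cells were sorted singly and doublets were not called, so whether some wells held material of more than a single cell was not tested. The tests were checked on simulated counts.

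The selected wells, gene lists and tests were chosen with earlier results of these data known. Named genes were the 9 selection genes, the AP-1 list, up to 4 genes per other list with the smallest p, any gene called, the 5 genes each way with the smallest p for treatment, and the 10 genes most like the selection genes. Some genes that this rule picks are not reported here. Genes shown against endothelial wells were chosen after their values were seen. Alternatives were other CPM limits, filters, scalings, label maps, thinning to 50000 counts, no mouse block and leaving out each mouse. Mice of 1 treatment were separate animals.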

Additional observations from a re-analysis of the deposited data

Results flagged for a closer look

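Groups of 4 mice were searched for a mouse whose gap to the nearest other exceeded Dixon's 95% limit. Of 27 groups tested, 2 had one, and chance alone gives about 1 in 20. In the miR-132 group, mouse 4 had 26.03% of its kept wells as IEG-high oligodendrocytes, with the nearest mouse at 15.6%. For the RNA polymerase II subunit gene Polr2g, mouse 6 stood at 44.4 CPM with the nearest mouse at 63.7 CPM.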

How the results depend on the processing

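Between IEG-high and IEG-low wells, the count of 2 genes became 109 with DESeq2, 8 with no low-count filter, 8 with wells assigned by sample titles, 7 with wells thinned to 50000 counts, 9 with limma on mean log2 values (chosen after seeing the data), 4 without the replicate block and 0 against wells with 0 of 4 genes. Leaving out 1 mouse gave 0 to 2. For treatment, 0 became 8 with DESeq2, 10 with no filter and 1 with limma, and for the difference between IEG-high and IEG-low wells in treatment response, 0 became 58 with DESeq2 and 1 with limma; without each mouse both stayed at 0. Against endothelial wells, 851 became 3391 with DESeq2 and 451 to 533 without 1 mouse. Without 1 mouse, the treatment difference in the share of kept wells ran from -2.98 to 5.80 percentage points, that in the share of oligodendrocyte wells from 5.32 to 18.9, and the date difference from -15.5 to -2.06. By sample titles, the latter 2 reversed to -0.665 and 3.33. The difference in median counts per well ran from -9367 to 8651, in median genes from -21.5 to 36.8 and in mitochondrial share from -0.135 to -0.0478. The 18S difference ran from -1.19 to -0.516 and was -0.596 against wells with 0 of 4 genes (exact permutation p = 0.422). By sample titles the treatment differences on the log2 scale reversed for Fbxl15 (-4.07), Cyhr1 (1.04) and Kif3a (0.35), and with limma the difference between IEG-high and IEG-low wells reversed for Car2 (0.10). The cause of these shifts was not tested. The IEG-high and IEG-low sums of a mouse come from the same animal, which is the pairing behind the block. The tests rest on 7 mice with 13 to 24 IEG-high wells each.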
